A study of Bos grunniens and Bos grunniens x Bos taurus with 2 samples.

Results

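*IGF1* and *IGFBP5* are genes of the insulin-like growth factor (IGF) axis, and their counts were followed across the somatic and germ cells of yak and cattle-yak testis. Both members, 2 of the 26961 genes in the annotation, were found by their symbols, and each symbol had 1 entry (*IGF1*, ENSBGRG00000000290; *IGFBP5*, ENSBGRG00000002228). The series holds 2 droplet libraries of testis tissue taken after sexual maturity, 1 of a yak (*Bos grunniens*) and 1 of a cattle-yak, the cross of *Bos grunniens* and *Bos taurus*, whose males are sterile. Neither animal carried an engineered allele or was treated, and the tissue was stored frozen, thawed and digested to single cells with collagenase, hyaluronidase and trypsin. With 1 library per cross there is no replicate and no test, so a difference between them is one between 2 libraries, and their preparation, the animal and the cross cannot be told apart.

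IGF1 is a secreted growth factor that binds the receptor IGF1R at the surface of a target cell. IGF-binding proteins hold IGFs outside the cell, and IGFBP5 both restrains IGF1 and, bound to extracellular matrix, can keep it near cells, until proteases cleave it and set the IGF free. In the testis, IGF1 of somatic cells is known as a local factor for Leydig cells (LCs), Sertoli cells (SCs) and germ cells, and *IGFBP5* is among the genes by which the study named its LC and myoid cell (MC) clusters.

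The yak library held 11991 cells with a median of 2533 unique molecular identifiers (UMIs, counts of single captured transcripts), and the cattle-yak library 8930 cells with a median of 3155. Limits on genes, UMIs and a mitochondrial share of 30% kept 10324 and 7092 cells. The median mitochondrial share over all cells was 14.5% in the yak and 20.4% in the cattle-yak. Of the kept cells, 1401 and 3222 had a share of 20% or more. Mitochondrial UMIs are part of the totals by which levels are given. The 2 libraries had 24 barcodes in common, which were treated as separate cells. The cells are labelled as germ cells, which goes against the data, since 14.4% of the kept yak cells and 1.52% of the kept cattle-yak cells were of a germ cell type or cluster. The upper limits left out further cells that clustered as germ-like without them, 412 in the yak and 209 in the cattle-yak. Clusters were made without any gene of the IGF axis and named from marker lists, in which the stromal-like cells had 8 enriched markers in the yak and MC-like cells 11. *MYH11*, smooth muscle myosin, stood at 8326 counts per 1000000 UMIs (CPM) in yak MC-like cells, against 616 CPM in stromal-like cells. Clusters left unnamed by the rules, some of which had enough enriched markers, are called by 2 of their leading genes, apart from a mixed cluster with pericyte and EC genes. Intervals are at 95%, from exact Poisson, binomial or conditional methods, and hold counting error only.

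*IGF1* was highest in the stromal-like cells of both libraries, the interstitial cells that carry *PDGFRA* and collagens. Yak stromal-like cells, 892 cells, had 1244 of the 2407 *IGF1* counts, or 329 CPM (311 to 347). Cattle-yak stromal-like cells, 2864 cells, had 3528 of the 4329 *IGF1* counts, or 467 CPM (452 to 483). Against all other kept cells the log2 ratio, with 1 CPM added to each side, was 3.16 (3.08 to 3.31) in the yak and 3.42 (3.34 to 3.56) in the cattle-yak. The cattle-yak value depended on the clustering, at 1.86 with 3000 variable genes, 2.39 with 20 principal components and 2.71 at a Leiden resolution of 2. Of all genes with enough counts, 7.99% in the yak and 7.05% in the cattle-yak were higher by a log2 ratio of 1 or more in stromal-like cells.

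The cells next in order of *IGF1* were an unnamed cluster led by *TNNI1*, a slow muscle troponin, and *CYP11A1*, the enzyme of the first step of steroid synthesis. In the yak it had 304 CPM (280.5 to 329.6; 422 cells), which overlapped the interval of the stromal-like cells, and in the cattle-yak 236 CPM (210.1 to 264; 329 cells), which lay below it. *PDGFRA*, a receptor of platelet-derived growth factor and a marker of interstitial stroma, stood at 1477 CPM in that cluster of the yak and at 681 CPM in that of the cattle-yak, against 685 and 379 CPM in stromal-like cells. The cluster thus held *PDGFRA* beside *MYH11*, which stood there at 6540.1 and 2837 CPM. It had 9 enriched markers of its best list in the yak and 3 in the cattle-yak, with none among its 10 leading genes. The naming rules left it unnamed, so its *IGF1* is not part of the MC-like level.

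Lymphatic endothelial (EC) cells also carried *IGF1*. The yak lymphatic EC-like cells had 116 CPM of *IGF1* (105 to 129; 701 cells), and those of the cattle-yak 81.9 CPM (66.6 to 99.7; 307 cells). *PDGFRA* was at 3.68 CPM and *DCN*, the matrix proteoglycan decorin, at 55.5 CPM in these yak cells, while stromal-like cells had 2144 CPM of *DCN*. The sum of the stromal marker list was 149 CPM in yak lymphatic EC-like cells, with 4 of its 11 measured genes at 0, and 8758 CPM in stromal-like cells. Blood EC-like cells had 9.13 CPM of *IGF1* in the yak and 14.3 CPM in the cattle-yak, below the lymphatic class in each library. In the cattle-yak the lymphatic interval overlapped those of macrophage-like (62.4 CPM, 40.8 to 91.5) and pericyte-like cells (59.5 CPM, 39.2 to 86.6).

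In the other yak classes *IGF1* was low, and 14 of the 17 groups of at least 50 cells were below 50 CPM. Among classes with any *IGF1* count it was lowest in MC-like cells (2.83 CPM), the mixed cluster with pericyte and EC genes (3.03 CPM) and T and natural killer (T/NK)-like cells (3.08 CPM), whose intervals overlapped. No *IGF1* count was found in the 84 spermatogonial stem cells (SSCs), where the interval reached 24.1 CPM, nor in a cluster led by *WFDC2* and *TF* (69 cells, up to 15.6 CPM). In the cattle-yak 5 of 11 groups were below 50 CPM, and a SC-like cluster of 133 cells stood at 118 CPM (84.7 to 160.1). The stromal marker list summed to 1206 CPM in these SC-like cells and *PDGFRA* to 109 CPM, and their part in the *IGF1* value was not tested.

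**Figure D1:**
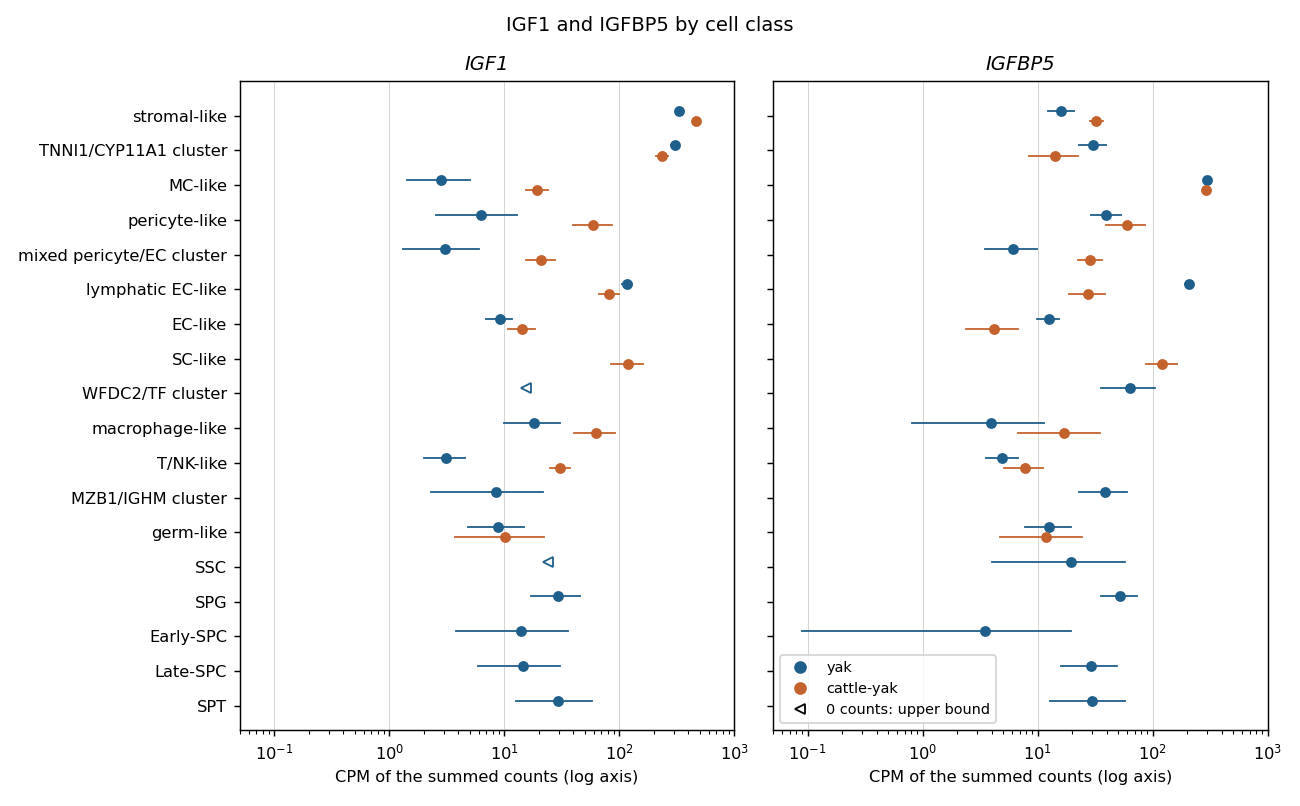
Level of *IGF1* (left) and *IGFBP5* (right) in each class of at least 50 kept cells, as CPM of the summed counts on a log axis, for the yak (blue) and the cattle-yak (orange) library. Points are the levels, lines their 95% counting intervals, and open triangles mark the upper bound where no count was found; *IGF1* is highest in stromal-like cells of both libraries (329 and 467 CPM) and *IGFBP5* in MC-like cells (300.0 and 294 CPM).

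*IGF1* was spread over many stromal cells, mostly at a few UMIs each. To compare shares at 1 depth, cells were thinned to 1000 UMIs, which left 861 yak stromal-like cells, of which 26.4% (23.4 to 29.4) had an *IGF1* UMI, and 2764 of the cattle-yak, of which 35.1% (33.3 to 36.9) had one. Unthinned, the shares were 60.7% and 63.2%, at median depths of 3975.5 and 2511 UMIs. T/NK-like cells, which served as the measure of background, had thinned shares of 0.372% and 1.65%, and unthinned shares of 0.676% and 5.59% at median depths of 1942 and 2393 UMIs. The variance of the thinned *IGF1* UMIs over cells was 1.23 times their mean in yak and 1.15 times in cattle-yak stromal-like cells, where counting alone gives a ratio of 1. No thinned stromal-like cell held more than 4 *IGF1* UMIs in the yak or 6 in the cattle-yak. Unthinned, 56 of 892 yak cells had 5 or more and held 30.3% of the counts, with 18 in the highest cell. In the cattle-yak 84 of 2864 cells did so and held 13.9%, with 12 in the highest.

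The 4 stromal-like clusters of the cattle-yak all carried *IGF1*, at 422, 452, 494 and 576 CPM. The highest of them, with 306 cells, was led by genes that include *F3*, *GAS1* and *LOX*, and it also had 2946.5 CPM of *DCN*. Its *IGFBP5* stood at 157 CPM (134 to 184), from 159 of the 245 *IGFBP5* counts of the class. A single cell held 80 of these 159 counts, which the interval does not take into account. The yak stromal-like cells formed a single cluster, and at a Leiden resolution of 2 they divided into a part of 533 cells with 344 CPM and a part of 336 cells with 305 CPM of *IGF1*.

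*IGFBP5* was highest in MC-like cells, which were named from contractile muscle genes and were not placed in the tubule wall or in vessels. *PDGFRA* was at 1.29 CPM in yak and 21.5 CPM in cattle-yak MC-like cells. The *TNNI1*/*CYP11A1* cluster, which held *MYH11* beside *PDGFRA*, had 30.3 CPM of *IGFBP5* in the yak and 14.1 CPM in the cattle-yak. The muscle gene *ACTA2* stood at 3106 and 2026 CPM in that cluster. Yak MC-like cells, 657 cells, had 1165 of the 2268 *IGFBP5* counts, or 300.0 CPM (283 to 318). Cattle-yak MC-like cells, 843 cells, had 1302 of the 1819 counts, or 294 CPM (279 to 311). Against the rest of the kept cells the log2 ratio was 3.10 (3.02 to 3.26) and 3.58 (3.49 to 3.79). In these cells 5.58% of all genes in the yak and 6.09% in the cattle-yak were higher than elsewhere by a log2 ratio of 1 or more. Thinned to 1000 UMIs, 20.5% (17.4 to 23.8) of 650 yak and 19.0% (16.4 to 21.8) of 837 cattle-yak MC-like cells had an *IGFBP5* UMI, against 0.572% and 0.579% of T/NK-like cells. Unthinned, the shares were 52.8% and 48.5% in MC-like cells at median depths of 5855 and 5077 UMIs, and 1.05% and 1.20% in T/NK-like cells.

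Within the MC-like cells *IGFBP5* was higher in clusters rich in *DES*, which encodes the intermediate filament desmin. In the cattle-yak an MC-like cluster of 387 cells led by *FHL5*, *NDRG4* and *DES* among others had 430.5 CPM of *IGFBP5*, and one of 456 cells led by *TRPC6* and *TRDN*, a cation channel and a protein of the muscle calcium store, had 179 CPM. The yak MC-like cells formed 1 cluster, which divided in the same manner at a Leiden resolution of 2. There 479 cells with 2588 CPM of *DES* and 90.0 CPM of *TRPC6* had 357 CPM of *IGFBP5* (336 to 379), and 180 cells with 697 CPM of *DES* and 354 CPM of *TRPC6* had 128 CPM (107 to 153). At the same resolution the matching cattle-yak clusters stood at 439 CPM and 162 CPM of *IGFBP5*, and an MC-like cluster of 42 cells, with 789 CPM of *DES* and 75.5 CPM of *TRPC6*, at 286 CPM. The intervals of the matching *DES*-rich and *TRPC6*-rich clusters did not overlap in either library, and these clusters were looked at after their values were known.

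In the yak alone, lymphatic EC-like cells came next, with 680 counts of *IGFBP5* and 209 CPM (193 to 225), or 30.0% of all its counts. The cattle-yak lymphatic EC-like cells had 33 counts and 27.3 CPM (18.8 to 38.3). Pericyte-like cells, which wrap small vessels, had 39.7 CPM (28.9 to 53.3) in the yak and 59.5 CPM (39.2 to 86.6) in the cattle-yak. Stromal-like cells, the main *IGF1* class, had 16.1 CPM (12.3 to 20.7) of *IGFBP5* in the yak and 32.4 CPM (28.5 to 36.8) in the cattle-yak. T/NK-like, macrophage-like and blood EC-like cells stood between 3.90 and 16.8 CPM of *IGFBP5* over both libraries.

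A few small groups also carried *IGFBP5*. A cattle-yak cluster of 20 cells led by *SCN7A* and *CDH19*, genes known from Schwann cells, had 22 counts and 475 CPM (298 to 719), but 13 of these counts came from 1 cell. The cattle-yak SC-like cluster stood at 121 CPM (87.1 to 163), of which 26 of 42 counts came from 1 cell. At a Leiden resolution of 2 that cluster divided into 30 cells led by *WFDC2* and *TF* with 35 *IGFBP5* counts, and 104 cells led by *AARD*, *DEFB123* and *INHA* among others with 7 *IGFBP5* counts and 37 of *IGF1*. In the yak the *WFDC2* and *TF* cluster had 63.5 CPM of *IGFBP5* (35.5 to 105). A yak cluster of 32 cells led by *DEFB123* and *AARD* had 111 CPM (40.9 to 243) from 6 counts, and one led by the plasma cell genes *MZB1* and *IGHM* 38.3 CPM (22.7 to 60.5), with 16 of its 18 counts in 1 cell.

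**Figure D2:**
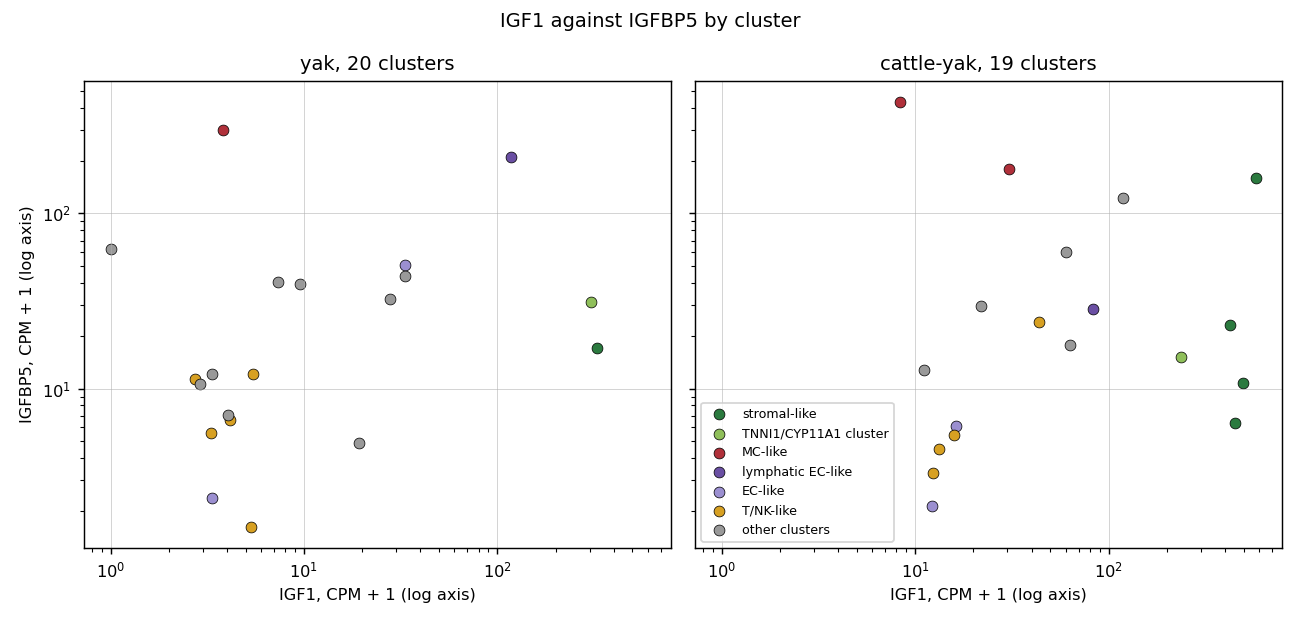
*IGF1* against *IGFBP5* in each cluster of at least 50 cells, as CPM plus 1 on log axes, in the yak (20 clusters) and the cattle-yak (19 clusters). Each point is a cluster, coloured by its class. MC-like clusters lie at the upper left and stromal-like clusters at the right. Both genes are seen in the lymphatic EC-like cluster of the yak (116 and 209 CPM). In the cattle-yak they are seen in a stromal-like cluster (576 and 157 CPM) and the SC-like cluster (118 and 121 CPM). In these 2 clusters 1 cell held 80 of 159 and 26 of 42 *IGFBP5* counts. At a Leiden resolution of 2 the SC-like cluster divided into 104 cells with 37 *IGF1* and 7 *IGFBP5* counts and 30 cells with 5 and 35, so the 2 genes lay mostly in different parts of it.

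In some classes a few cells held most of the *IGFBP5* counts. In yak lymphatic EC-like cells, 37 of 701 cells had 5 or more *IGFBP5* UMIs and together held 521 of the 680 counts, or 76.6%, and the highest cell had 45. Over the thinned cells the variance of *IGFBP5* was 4.18 times its mean, against 1.06 times for *IGF1* in the same class. In cattle-yak stromal-like cells, 7 of 2864 cells held 139 of the 245 *IGFBP5* counts, and 1 cell alone had 80. In MC-like cells 83 cells of each library had 5 or more UMIs, with 58.4% of the counts in the yak and 54.5% in the cattle-yak, and the variance was 1.53 and 1.65 times the mean. Counting intervals take no account of this unevenness. Where the variance exceeds the mean, as it also does in MC-like cells, levels of *IGFBP5* are less certain than their intervals. Without the cells of 5 or more UMIs, *IGFBP5* stood at 52.5 CPM in yak lymphatic EC-like cells and at 14.1 CPM in cattle-yak stromal-like cells.

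**Figure D3:**
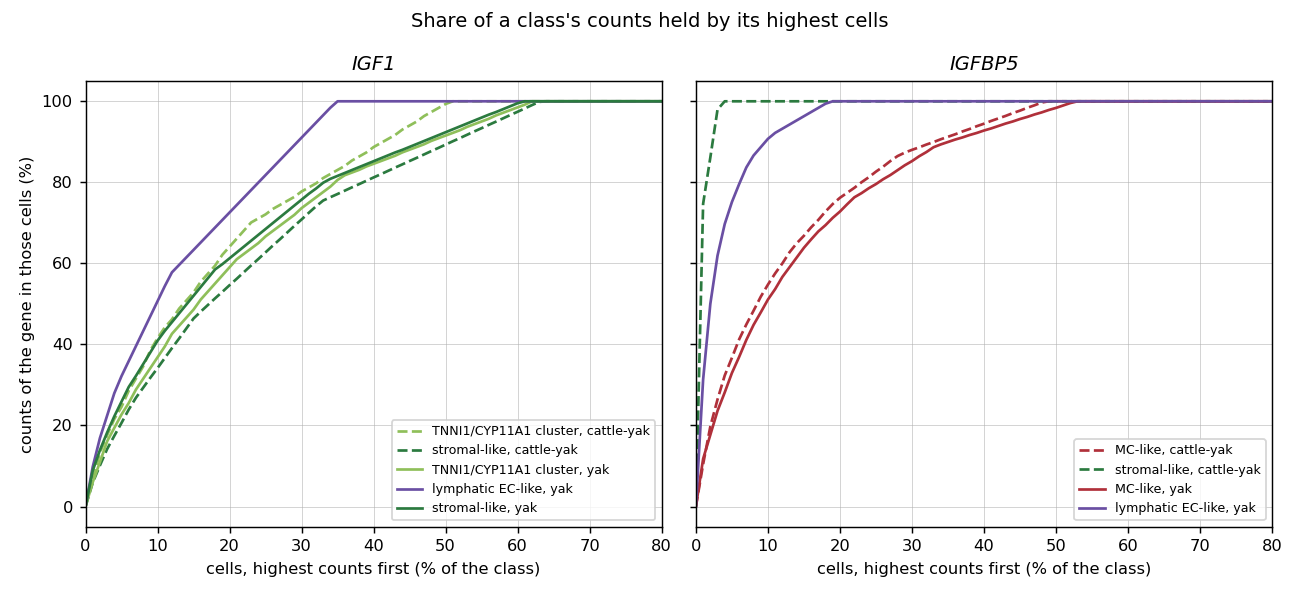
Share of a class's counts (vertical axis, %) held by its cells when ranked from the highest count down (horizontal axis, % of cells), for *IGF1* (left) and *IGFBP5* (right), in classes with at least 50 cells and 200 counts of the gene. Solid lines are yak and dashed lines cattle-yak classes; *IGFBP5* of yak lymphatic EC-like cells (76.6% in 37 of 701 cells) and of cattle-yak stromal-like cells rises far more steeply than *IGFBP5* of MC-like cells.

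The 37 yak lymphatic EC-like cells with 5 or more *IGFBP5* UMIs were set beside the 571 cells of the class with none, a choice made after the values were seen. Their median depths were 5385 and 4038 UMIs. *CCL21*, *SPARC*, *CCN3* and *ANGPT2* were picked for their large differences, and the share of all genes that differ as much is not given here. *CCL21*, the chemokine by which lymphatic vessels draw in immune cells, was at 4763 CPM in the 37 cells and 1131 CPM in the 571. *SPARC*, a matrix protein, was at 896 against 285 CPM, and *CCN3*, a secreted matricellular protein, at 944 against 376 CPM. *ANGPT2*, a ligand of the receptor TIE2, was lower, at 248 against 1161 CPM. The lymphatic markers *PROX1* (170 against 225 CPM) and *MMRN1* (2706 against 3019.7 CPM) were high in both sets. The muscle gene *ACTA2* was at 82.7 against 49.1 CPM and *MYH11* at 169.7 against 84.8 CPM, while MC-like cells had 8326 CPM of *MYH11*. *IGF1* was at 169.7 CPM (121 to 232) in these cells and at 109.5 CPM (97.0 to 123) in those without *IGFBP5*.

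Cells with both *IGF1* and *IGFBP5* were few at this depth. After thinning, 1 of 861 yak stromal-like cells had a UMI of each gene, or 0.116% (0.00294 to 0.645), where the product of the single shares is 0.245%. In cattle-yak stromal-like cells 16 of 2764 had both, or 0.579%, and the product was 0.482%. In yak lymphatic EC-like cells 8 of 682 had both, or 1.17% (0.508 to 2.30), beside a product of 0.895%. Unthinned, 1.91% of the yak stromal-like and 7.99% of the yak lymphatic EC-like cells had both, beside products of 1.90% and 6.46%. The product lay within the counting interval in these 2 classes of the yak. It lay below the interval, unthinned, in cattle-yak lymphatic EC-like cells, at 1.49% beside 3.26% (1.57 to 5.91). The same held in yak EC-like cells, at 0.0993% beside 0.315% (0.102 to 0.734). Thinned to 1000 UMIs, the product lay within the interval in both. It was 0.235% beside 0.654% (0.0793 to 2.34) in cattle-yak lymphatic EC-like cells and 0.0220% beside 0.0781% (0.00198 to 0.435) in yak EC-like cells. Over clusters of at least 50 cells, Pearson's r between both genes on the log2(CPM + 10) scale was 0.28 over 20 yak clusters and 0.10 over 19 cattle-yak clusters, as a description of clusters that share a library and its depth.

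Between the libraries, *IGF1* was higher in the cattle-yak in total, with 165 CPM (159.9 to 169.8) over all kept cells against 66.4 CPM (63.8 to 69.1) in the yak. Stromal-like cells made up 40.4% of the kept cells of the cattle-yak and 8.64% of those of the yak. Within stromal-like cells the log2 ratio of the cattle-yak to the yak was 0.51 (0.41 to 0.60), where the median of all genes was -0.26, and 8.1% of the 6901 genes with enough counts lay beyond a log2 ratio of 1 in either direction. *IGF1* was not among these. Its ratio was 0.82 without mitochondrial and rRNA genes, and 0.38 in cells with a mitochondrial share below 20%. *PDGFRA* had a ratio of -0.85 in the same cells. In the *TNNI1*/*CYP11A1* cluster the ratio of *IGF1* was -0.37 (-0.57 to -0.16), beside a median of -0.28 and 6.28% of genes beyond 1, and in lymphatic EC-like cells it was -0.50 (-0.84 to -0.18), beside a median of -0.35. Relative to those medians *IGF1* in both groups differed by -0.09 and -0.15.

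In several classes that carried little *IGF1* in the yak, the cattle-yak library had more. This did not hold in germ-like cells (10.1 against 8.84 CPM, with overlapping intervals). The yak germ-like cells here were the 361 outside the authors' types, while the cattle-yak group was all 108 of its kept germ cells. In EC-like cells the log2 ratio was 0.60 (0.09 to 1.20). A yak EC-like cluster of 741 cells had 32.1 CPM of *IGF1* and 1900 CPM of *MYH11*, whose part was not tested. The other, of 893 cells, had 2.36 CPM of *IGF1* (1.22 to 4.13). The EC-like clusters of the cattle-yak stood above the latter, at 15.2 CPM (11.1 to 20.4) and 11.3 CPM (5.40 to 20.7). The log2 ratio was 2.95 (2.67 to 4.00) in T/NK-like, 3.05 (2.00 to 4.68) in pericyte-like, 2.41 (1.87 to 3.83) in MC-like and 1.72 (0.79 to 2.83) in macrophage-like cells. At a Leiden resolution of 2 the yak macrophage-like cells divided into 70 cells rich in the complement genes *C1QA* and *C1QB*, with 53.8 CPM of *IGF1* (28.6 to 91.9), and 143 cells led by *PLD4* among others, with 1.88 CPM. In the cattle-yak 70 cells were of the former kind, with 81.7 CPM (49.9 to 126), an interval that overlapped that of the yak, and 32 of the latter, with 35.0 CPM from 7 counts. Stromal markers moved with it, since the stromal list summed to 139 CPM in yak and 653 CPM in cattle-yak T/NK-like cells, and *PDGFRA* in MC-like cells was at 1.29 and 21.5 CPM. In pericyte-like cells *PDGFRA* was at 12.6 and 13.2 CPM and *DCN* at 383 and 838 CPM. In MC-like cells 3.62% of genes with at least 100 summed counts lay beyond a log2 ratio of 1 in either direction. *IGF1* there fell short of that count. Small clusters, looked at after the values were seen, held a part of the *IGF1* counts. Of the 86 *IGF1* counts in cattle-yak MC-like cells, 59 came from 42 cells that a Leiden resolution of 2 set apart, the MC-like cluster with the highest Scrublet scores. These 42 cells had 185 CPM of *IGF1*, 255 CPM of *PDGFRA* and 5477 CPM of *MYH11*, and their mean score, a measure of likeness to a doublet, lay at the 98.3 percentile of the library. The other 801 MC-like cells had 6.58 CPM of *IGF1* and 3.41 CPM of *PDGFRA*, and their log2 ratio to the yak was 0.98 (0.16 to 2.37). Likewise 43 of the 107 *IGF1* counts in cattle-yak T/NK-like cells came from a cluster of 46 cells with 208 CPM of *IGF1*, 406 CPM of *PDGFRA* and a mean score at the 98.1 percentile. The other 1207 T/NK-like cells had 19.5 CPM of *IGF1* and a ratio of 2.33 (1.97 to 3.39), with *PDGFRA* at 27.1 CPM. They still included a cluster of 127 cells with 30 *IGF1* counts, or 42.8 CPM, beside 72.8 CPM of *PDGFRA* and 524 CPM of *ACTA2*. The remaining T/NK-like clusters of the cattle-yak stood at 11.4, 12.2 and 15.0 CPM of *IGF1*, against 3.08 CPM in the yak class. What part doublets or free RNA had in these levels was not tested.

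*IGFBP5* in MC-like cells was close in both libraries, with a log2 ratio of -0.03 (-0.14 to 0.09) beside a median of -0.11. In lymphatic EC-like cells it was lower in the cattle-yak by the widest margin of any class, with a ratio of -2.89 (-3.48 to -2.43), beside 8.44% of 4195 genes beyond 1 in either direction, and 22 of these genes had a lower ratio. Only 1 of 307 cattle-yak lymphatic EC-like cells had 5 or more *IGFBP5* UMIs. Without such cells in either library the ratio was -1.19 (-1.87 to -0.63). After thinning, 8.36% (6.39 to 10.7) of 682 yak and 3.59% (1.81 to 6.34) of 306 cattle-yak lymphatic EC-like cells had an *IGFBP5* UMI. These intervals only just failed to overlap, and the result depended on the depth. Thinned to 500 UMIs, the shares were 4.71% (3.26 to 6.55) and 2.61% (1.13 to 5.07), with overlapping intervals. Unthinned, at unequal depths, they were 18.5% (15.7 to 21.6) and 5.86% (3.51 to 9.11), with intervals apart. *IGFBP5* was also lower in cattle-yak blood EC-like cells, at 4.16 against 12.5 CPM, a ratio of -1.38 (-2.46 to -0.80). That yak class joined a cluster of 741 cells with 77 *IGFBP5* counts and 49.5 CPM, which also had 1900 CPM of *MYH11* and 68.1 CPM of *PDGFRA*, to one of 893 cells with 1.38 CPM and 71.7 CPM of *MYH11*. The EC-like clusters of the cattle-yak had 5.07 and 1.13 CPM of *IGFBP5*, so the lower class value was not seen against the second yak cluster, and the part of the muscle genes was not tested. In the *TNNI1*/*CYP11A1* cluster the ratio was -1.05 (-1.95 to -0.32), at 14.1 against 30.3 CPM, but 5 yak cells held 37 of the 60 counts and without them the yak stood at 11.9 CPM, below the cattle-yak. In the mixed cluster with pericyte and EC genes it was higher in the cattle-yak, at 28.5 against 6.06 CPM, a ratio of 2.06 (1.44 to 3.12). Of genes with at least 100 summed counts, which *IGFBP5* did not reach there, 3.77% lay beyond 1. The higher *IGFBP5* too rested on few cells. At a Leiden resolution of 2 a cluster of 15 cattle-yak cells held 42 counts. The main cluster of this kind had 12.3 CPM in the cattle-yak and 6.65 CPM in the yak. *IGF1* there had a ratio of 2.44 (1.70 to 4.07). In stromal-like cells the ratio was 0.97 (0.60 to 1.44), a value that rests on few cells, since it was 0.55 (0.04 to 1.20) without the cells of 5 or more UMIs and 0.04 (-0.51 to 0.60) without the cells of the highest Scrublet scores.

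**Figure D4:**
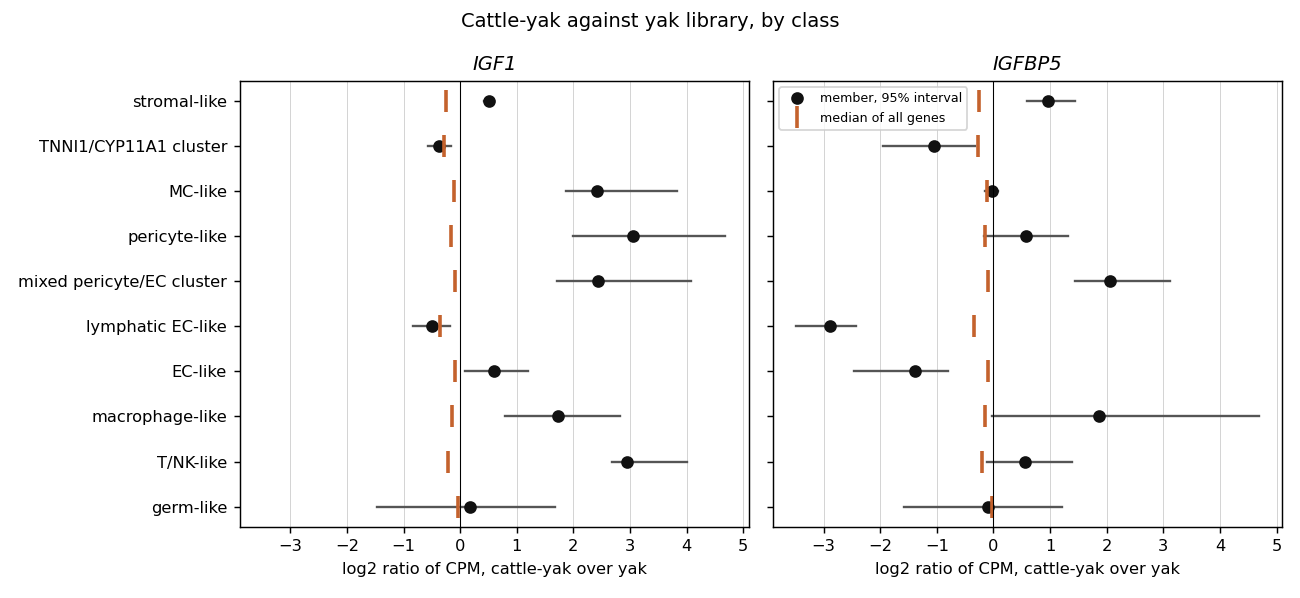
Log2 ratio of CPM, cattle-yak over yak, of *IGF1* (left) and *IGFBP5* (right) in each class with at least 50 kept cells in both libraries. The germ-like cells of the yak are those outside the authors' types. Points with lines are the ratios with 95% counting intervals and orange bars the median of all genes with enough counts. *IGF1* lies furthest to the right in pericyte-like cells (3.05, from 27 and 7 counts) and T/NK-like cells (2.95). After thinning to 1000 UMIs no pericyte-like cell of either library had an *IGF1* UMI. *IGFBP5* lies furthest to the left in lymphatic EC-like cells (-2.89).

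Of a list of 48 genes of the IGF axis, 39 were found in the annotation by symbol, among them all 9 binding proteins and all 3 receptors but 2 of 3 ligands. *IGF2* was not found, and *INS*, insulin, and *IGFBP1* had no count in a kept group. Of the 27 axis genes with at least 100 counts in each library, 15 had their highest class in common in both. The yak had 17 groups and the cattle-yak 11, so a gene highest in a germ cell type of the authors could not match. *IGF1R* and *ADAM9*, highest in Late-SPC and Early-SPC of the yak and in germ-like cells of the cattle-yak, thus counted as different. The share over all genes was not computed, so the count is a description only. The binding proteins differed in the class where each was highest. *IGFBP4* was highest in lymphatic EC-like cells, with 391 CPM in the yak and 229 CPM in the cattle-yak, and *IGFBP3*, the main carrier in blood, in EC-like cells, with 131 and 173 CPM. *IGFBP6* was highest in stromal-like cells, with 6125 and 3848 CPM, and *IGFBP7* in the mixed cluster with pericyte and EC genes, with 15628 and 12688 CPM. *IGFBP5* and *SOCS2*, an inhibitor of growth hormone signalling, were the 2 axis genes highest in MC-like cells of both libraries. *IGF1* shared its class with *IGFBP6* and with *ADAM12* and *C1S*, which encode proteases known to cleave IGF-binding proteins. Yak stromal-like cells had 262 CPM of *C1S* and 78.4 CPM of *ADAM12*.

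The receptor *IGF1R* was counted sparsely, and its higher levels lay outside the main *IGF1* classes. Yak stromal-like cells had 8.71 CPM of *IGF1R*, and the *TNNI1*/*CYP11A1* cluster 2.52 CPM. Levels were higher in yak MC-like cells (21.6 CPM, 17.3 to 26.8), lymphatic EC-like cells (28.8 CPM, 23.3 to 35.3) and late spermatocytes (Late-SPC; 50.4 CPM, 32.3 to 75.0). In the cattle-yak *IGF1R* stood at 9.67, 19.7 and 21.5 CPM in stromal-like, MC-like and lymphatic EC-like cells and at 27.0 CPM (15.4 to 43.9) in germ-like cells, and the last 3 intervals overlapped. *GHR*, the growth hormone receptor upstream of *IGF1* in liver, stood at 10.0 CPM in yak and 6.22 CPM in cattle-yak stromal-like cells.

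The axis genes were also compared between the libraries. In stromal-like cells 19 of the 39 had enough counts, of which *ADAM12* lay above a log2 ratio of 1, with 1.25 (1.08 to 1.45), and none below -1; their median was -0.37, beside -0.26 for all genes, of which 8.1% lay beyond 1. In MC-like cells 1 of 18, *ADAM12*, was above 1 and 1, *IGFBP3*, was below -1, where the share of all genes was 3.62%. In lymphatic EC-like cells 1 of 12, *IGFBP6*, was above 1 with 1.46 (1.24 to 1.71), and *IGFBP5* was the only one below -1, where the share of all genes was 8.44%. In the *TNNI1*/*CYP11A1* cluster none of 12 was beyond 1 in either direction, against 6.28% of all genes. In T/NK-like cells 3 of 12, *IGF1*, *IGFBP6* (2.30) and *IGFBP7* (1.45), were above 1 and none below -1, where the share of all genes was 10.6%. Of those with enough counts, *IGFBP6* was also the only one beyond 1 among 20 in EC-like cells, with 1.12 beside a share of 5.34%. The same held among 12 in the mixed cluster, with 1.17 beside 3.77%. *IGFBP6* also lay above 1 in macrophage-like cells, and in germ-like cells *FOXO1* lay above 1 and *IGFBP7* below -1, where the share of all genes was not computed. Stromal-like cells, which had 6125 and 3848 CPM of *IGFBP6*, made up 8.64% of the kept yak and 40.4% of the kept cattle-yak cells. What part stromal RNA had in the *IGFBP6* ratios of other classes was not tested. *IGF1* in MC-like cells and the mixed cluster had fewer than 100 summed counts. So had *IGFBP5* in EC-like cells, the mixed cluster and the *TNNI1*/*CYP11A1* cluster. These tallies leave them out, though their ratios lay beyond 1.

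**Figure D5:**
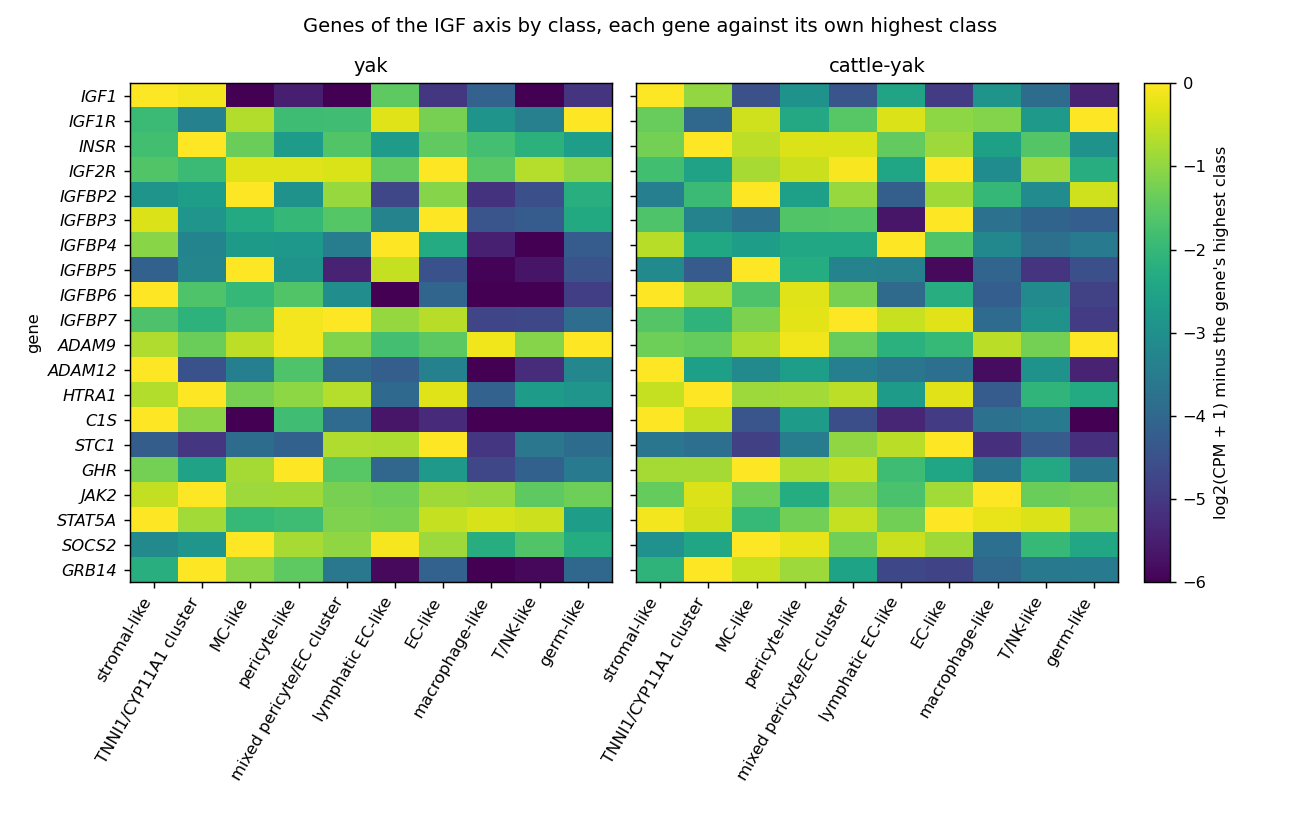
Level of 20 genes of the IGF axis (rows) in 10 classes (columns) of the yak and the cattle-yak, as log2(CPM + 1) minus the value in the gene's highest class of those shown, so that 0 (yellow) marks that class. Values are compared along a row only; *IGF1* peaks in stromal-like and *IGFBP5* in MC-like cells of both libraries, while *IGF1R* peaks in germ-like cells.

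The kept germ cells carried little *IGF1*, and *IGFBP5* was low in them apart from spermatogonia of the yak. Among the yak germ cells typed by the authors, *IGF1* was at 29.1 CPM (17.2 to 46.0) in spermatogonia (SPG), 14.0 in Early-SPC, 14.7 in Late-SPC and 29.5 CPM (12.7 to 58.0) in spermatids (SPT), with overlapping intervals, and its counts in these 4 types were 18, 4, 7 and 8. *IGFBP5* was at 51.7 CPM (35.4 to 73.0) in SPG, above the 16.1 CPM (12.3 to 20.7) of stromal-like cells, and at 19.6 CPM, from 3 counts, in SSCs. SPG and SPT were shallow, with medians of 979.5 and 906 UMIs per cell, and SPG held 790 CPM of *ACTA2*, 77.6 CPM of *PDGFRA* and a stromal list sum of 611 CPM, whose part in these levels was not tested. The other 361 yak germ-like cells had 8.84 CPM of *IGF1* and 12.6 CPM of *IGFBP5*, and the 108 cattle-yak germ-like cells 10.1 and 11.8 CPM, from 6 and 7 counts. More cattle-yak germ-like cells were left out by the upper limits on genes or UMIs than were kept. These 209 cells, clustered without the limits, had 7.02 CPM of *IGF1* and 42.5 CPM (37.2 to 48.3) of *IGFBP5*, from 39 and 236 counts. In the yak 412 such cells had 2.39 and 7.78 CPM.

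By Pearson's r over clusters of at least 50 cells, taken as the lower of both libraries among 7402 genes, the genes most like *IGF1* were ENSBGRG00000019141 (0.95 over 20 yak and 0.91 over 19 cattle-yak clusters), *NID1*, *FLRT2*, *OSR1* and *TNNT2*. *NID1* encodes a basement membrane protein and had an r of 0.91 and 0.96, and *OSR1*, a transcription factor, 0.87 and 0.92. The genes most like *IGFBP5* were *SBSPON* (0.82 and 0.86), *TGFB3*, *PLCE1*, *FILIP1L* and *NTN4*. *TGFB3*, a growth factor of the TGF-beta family, had an r of 0.79 and 0.85, and *NTN4*, a netrin of basement membranes, 0.92 and 0.73. These are descriptions of clusters that share a library and its depth. By the order of genes in RefSeq's annotation of another yak assembly, Bosgru_T2T1.0, *IGFBP5* lies between *TNP1* and *IGFBP2*. *IGFBP2*, the neighbour and relative of *IGFBP5*, was at 33.7 CPM in yak and 32.1 CPM in cattle-yak MC-like cells, and at 0.307 and 0.827 CPM, from 1 count in each library, in lymphatic EC-like cells.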

How the data were processed

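Single-cell libraries of testis from 1 yak and 1 cattle-yak were analysed. The authors deposited counts, the whole numbers of UMIs per gene and cell barcode written by Cell Ranger without normalization. The file headers name cellranger 5.0.0, the submitters' processing notes Cell Ranger 2.1.1. The study mapped yak reads to its yak genome build and describes no cattle-yak library. Counting by strand is not given in the sources used here.

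Cells more than 2 standard deviations from their library's mean in genes or UMIs were left out, as were those with a mitochondrial share of 30% or more. Each library was clustered alone with scanpy 1.11.5 and igraph 0.11.9 under Python 3.11.15 (counts scaled to 10000 and log transformed, 2000 variable genes without the IGF axis, 30 principal components, 15 neighbours, Leiden resolution 1, seed 0). A name needed 3 enriched markers, each with a log2 ratio of at least 1 and a UMI in at least 10% of cells. It was withheld where another list had at least as many enriched markers, or had more markers among the 10 leading genes. Shallow clusters with no marker among these genes were also left unnamed. Yak germ cells in the authors' table of types kept those types, 1127 cells. Scrublet called 0 of 11991 yak and 251 of 8930 cattle-yak cells (2.81%) as doublets, so it has not worked in the yak, no cell was removed, and leaving out the top 10% of scores was an alternative. A floor is 3 counts.

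Levels are summed counts of a class per 1000000 UMIs (CPM). Log2 ratios had 1 CPM added above and below, while their intervals are of the counts alone. Ratios over all genes used genes with at least 100 summed counts. Shares of cells were taken after thinning to 1000 UMIs. UMI counts are not scaled by length, so levels were compared within a gene only. With 1 library per group there is no test and no p-value. The named genes were both members, the axis list and the 5 genes most like each member, and any others serve as markers or are named as picked later. The members and lists were chosen with earlier results of these data known. The scripts were tested on simulated data. Protein, transcript and promoter sequences were not used here. Some results are not reported here.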

Additional observations from a re-analysis of the deposited data

Results flagged for a closer look

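The level of *IGF1* in lymphatic EC-like cells against all other kept cells lay on opposite sides of 0 in both libraries, with log2 ratios of 0.91 in the yak and -1.03 in the cattle-yak, so that the cattle-yak value was lower by 1.94 (difference -1.94). For *IGFBP5* in the same cells the log2 ratios were 2.09 and -1.35, a difference of -3.45. Neither difference was tested, and each library is 1 sample. The *IGF1* level of the class itself was 116 CPM in the yak and 81.9 CPM in the cattle-yak, while *IGF1* in all kept cells stood at 66.4 and 165 CPM and stromal-like cells made up 8.64% and 40.4% of the kept cells.

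Cells outside the main comparisons also held counts of both members, above the limit that a count of 0 allows. In yak cells with a mitochondrial share of 30% or more (877 cells), *IGF1* stood at 11.8 CPM and *IGFBP5* at 64.1 CPM. In those of the cattle-yak (1310 cells), *IGF1* stood at 37.7 CPM and *IGFBP5* at 31.4 CPM. In yak cells above the limits on genes or UMIs (790 cells), *IGF1* stood at 5.51 CPM and *IGFBP5* at 9.74 CPM. In those of the cattle-yak (528 cells), *IGF1* stood at 11.3 CPM and *IGFBP5* at 30.4 CPM.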

How the results depend on the processing

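Of 103 comparisons of a value with its alternative, 66 kept it within its spread, 37 moved it, and none turned a direction whose interval left out 0. *IGFBP5* in MC-like cells, whose interval holds 0, lay above 0 under 5 of 11 alternatives. The log2 ratio of *IGF1* in its leading class to other cells, 3.16 in the yak and 3.42 in the cattle-yak, was 3.73 and 3.95 without upper limits on genes and UMIs, 3.38 and 1.86 with 3000 variable genes, 3.34 and 2.79 without the top 10% of Scrublet scores, and 2.89 and 3.18 with 10 CPM added. In the cattle-yak it was also 3.33 below a mitochondrial share of 20%, 2.71 at a Leiden resolution of 2, 2.39 with 20 principal components and 3.63 without mitochondrial and rRNA genes. For *IGFBP5*, 3.10 and 3.58, it was 3.55 and 3.46 without upper limits, 3.29 and 3.92 with cells weighted equally, and 2.81 and 3.18 with 10 CPM added, and 3.31 in the yak below a mitochondrial share of 20%.

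Between the libraries, *IGF1* in stromal-like cells (0.51) was 0.38 below a mitochondrial share of 20%, 0.29 with 3000 variable genes, 0.32 without the top Scrublet scores and 0.82 without mitochondrial and rRNA genes. In MC-like cells (2.41) *IGF1* was 1.10 without the top Scrublet scores, 1.77 with cells weighted equally, 1.20 with 10 CPM added and 0.98 without 42 cells. *IGFBP5* in stromal-like cells (0.97) was 0.22 without upper limits, 0.14 with 3000 variable genes, 0.036 without the top Scrublet scores, 0.32 with cells weighted equally and 0.55 without cells of 5 or more UMIs. In MC-like cells (-0.03) *IGFBP5* was -0.18 with 20 principal components, -0.16 without the top Scrublet scores and 0.10 without mitochondrial and rRNA genes. In lymphatic EC-like cells (-2.89) it was -1.19 without cells of 5 or more UMIs. Yak stromal-like cells with both genes (0.116%) were 1.91% without thinning, since more UMIs per cell were read. For the others the cause was not tested. Leaving out cells of 5 or more UMIs or the 42 cells was chosen after seeing the data. No paired analysis was possible because each group is 1 sample, and no replicate could be left out.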
